A study of Mus musculus with 899 samples.

Results

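The miR-106b-25 cluster was followed in mouse plasma through 4 mature miRNA: mmu-miR-106b-5p, mmu-miR-106b-3p, mmu-miR-93-5p and mmu-miR-25-3p, named here without the species prefix. They were taken by name from a table of 1915 miRNA, and all 4 were among the 483 miRNA abundant enough to be tested. The values were counts of sequencing reads in plasma samples of 196 mice. C3H mice (C3Hf/Sed/Kam) and C57Bl/6 mice of both sexes had the whole thorax irradiated once, or were sham treated. Plasma was taken before irradiation (PT), on day 2 (D2) or day 5 (D5), and then monthly, to month 4 (M4) in C3H mice and month 6 (M6) in C57Bl/6 mice. Irradiation was given to 64 C3H and 68 C57Bl/6 mice, and each strain had 32 sham mice.

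Each strain was run as 2 cohorts, and each cohort held mice of 1 strain only. Both cohorts were bled up to month 1 (M1), and only cohort 1 was followed after that. On day 2 and on day 5 each strain had 32 irradiated and 16 sham samples, 8 and 4 for each cohort and sex. The smallest group was the 8 irradiated C57Bl/6 mice at month 6. Of the irradiated C57Bl/6 mice, 4 had no sample before irradiation. Depth lay between 206490 and 11814515 reads (median 1475030), and 23 samples had under 500000. The same mice recur at successive time points.

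The 3 hairpins of the cluster lie inside an intron of Mcm7, which encodes a subunit of the helicase that opens DNA for replication, and they are cut from 1 primary transcript. Each hairpin yields a 5p arm and a 3p arm. A miRNA finds its target mRNA mainly through its seed, the bases near its 5′ end, so arms that share a seed can repress the same mRNA. The cluster is a relative of those that run from miR-17 to miR-92a and from miR-106a to miR-363, and the Cdkn1a and Bcl2l11 mRNA, which encode an inhibitor of the cell cycle and a promoter of apoptosis, are among the known targets of these families. Red blood cells are rich in several miRNA, among them miR-451a, miR-144 and miR-486, and release them into plasma when they lyse.

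The mature sequences of the members and of the opposite arms of 2 of the hairpins are shown because they set out which members share a seed. They are from RefSeq (GRCm38.p6), written 5′ to 3′, with bases 2 to 8, the seed, in capitals.
miR-106b-5p: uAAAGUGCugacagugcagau
miR-93-5p: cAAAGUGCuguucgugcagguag
miR-25-3p: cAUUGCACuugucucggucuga
miR-106b-3p: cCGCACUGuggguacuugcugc
miR-93-3p: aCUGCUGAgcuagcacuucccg
miR-25-5p: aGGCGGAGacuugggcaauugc

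miR-106b-5p and miR-93-5p thus had the same seed and matched at 16 bases over the 21 of miR-106b-5p, while the other members had seeds of their own. Among the miRNA with a RefSeq sequence, which were 415 of the 483 tested, the seed AAAGUGC was also held by miR-106a-5p, miR-20b-5p, miR-17-5p and miR-20a-5p, which makes 6 tested miRNA. The seed AUUGCAC of miR-25-3p was shared with miR-32-5p, miR-92a-3p, miR-92b-3p and miR-363-3p, and the seed of miR-106b-3p was found in no other of the tested miRNA that had a sequence. The closest relatives are shown to make plain how little separates reads of the clusters.
miR-17-5p: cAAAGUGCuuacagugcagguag
miR-20b-5p: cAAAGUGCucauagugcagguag
miR-92a-3p: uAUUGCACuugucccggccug
miR-106b-5p matched miR-17-5p at 18 of 21 bases, miR-93-5p matched miR-20b-5p at 20 of 23, and miR-25-3p matched miR-92a-3p at 18 of 22. How reads that match several miRNA were counted is not given in the sources used here, so part of a change in one of these relatives could be counted under another.

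All hairpins lie on the minus strand of chromosome 5, within 498 bases. Mir106b is at chr5:138165737-138165818, Mir93 at chr5:138165523-138165610 and Mir25 at chr5:138165321-138165404 (GRCm38.p6). They fall in intron 13 of an Mcm7 transcript with 14 introns, in a gene that spans chr5:138164583-138172422. Of the 10 annotated Mcm7 transcripts, 2 carry the hairpins in an intron, and Mir93 and Mir25 are each overlapped by an exon of 1 transcript. The hairpin of miR-106b is shown with its 5p and 3p arms in capitals, since both are members and the data separate them.
Mir106b: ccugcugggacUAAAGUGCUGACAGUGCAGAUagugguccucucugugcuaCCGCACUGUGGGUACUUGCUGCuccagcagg

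Levels differed widely within the cluster although its hairpins come from 1 transcript. On a log2 scale of counts corrected for library size (log2 CPM), the mean over all samples was 14.45 for miR-25-3p (SD 0.58, rank 7 of the 483 miRNA), 14.08 for miR-93-5p (SD 0.64, rank 10) and 7.91 for miR-106b-5p (SD 0.97, rank 102). miR-106b-3p was lowest, at 3.35 (SD 0.98, rank 227), with a median of 15 reads per sample. The 4 members together held between 0.694% and 10.3% of the reads of a sample (median 3.99%), and 99.4% of those reads (median) were miR-93-5p or miR-25-3p. miR-16-5p, the most abundant miRNA, held a median of 46.2%. The arms of the miR-106b hairpin were separated by a median ratio of 22.1 reads of the 5p arm to 1 of the 3p arm. The opposite arms miR-93-3p and miR-25-5p ranked 151 and 258. Mature miRNA are of nearly equal length, so these levels are not corrected for length, but ligation and amplification can favour some sequences over others.

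In 28 samples (3.11%) miR-106b-3p had 0 reads. A count of 0 allows up to 3 reads, which in those samples corresponds to between 1.33 and 7.15 CPM. This limit covers counting error only. Values of miR-106b-3p are therefore the least precise of the cluster, and a sample with 0 reads is placed at 0.23 on the log2 CPM scale.

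**Figure D1:**
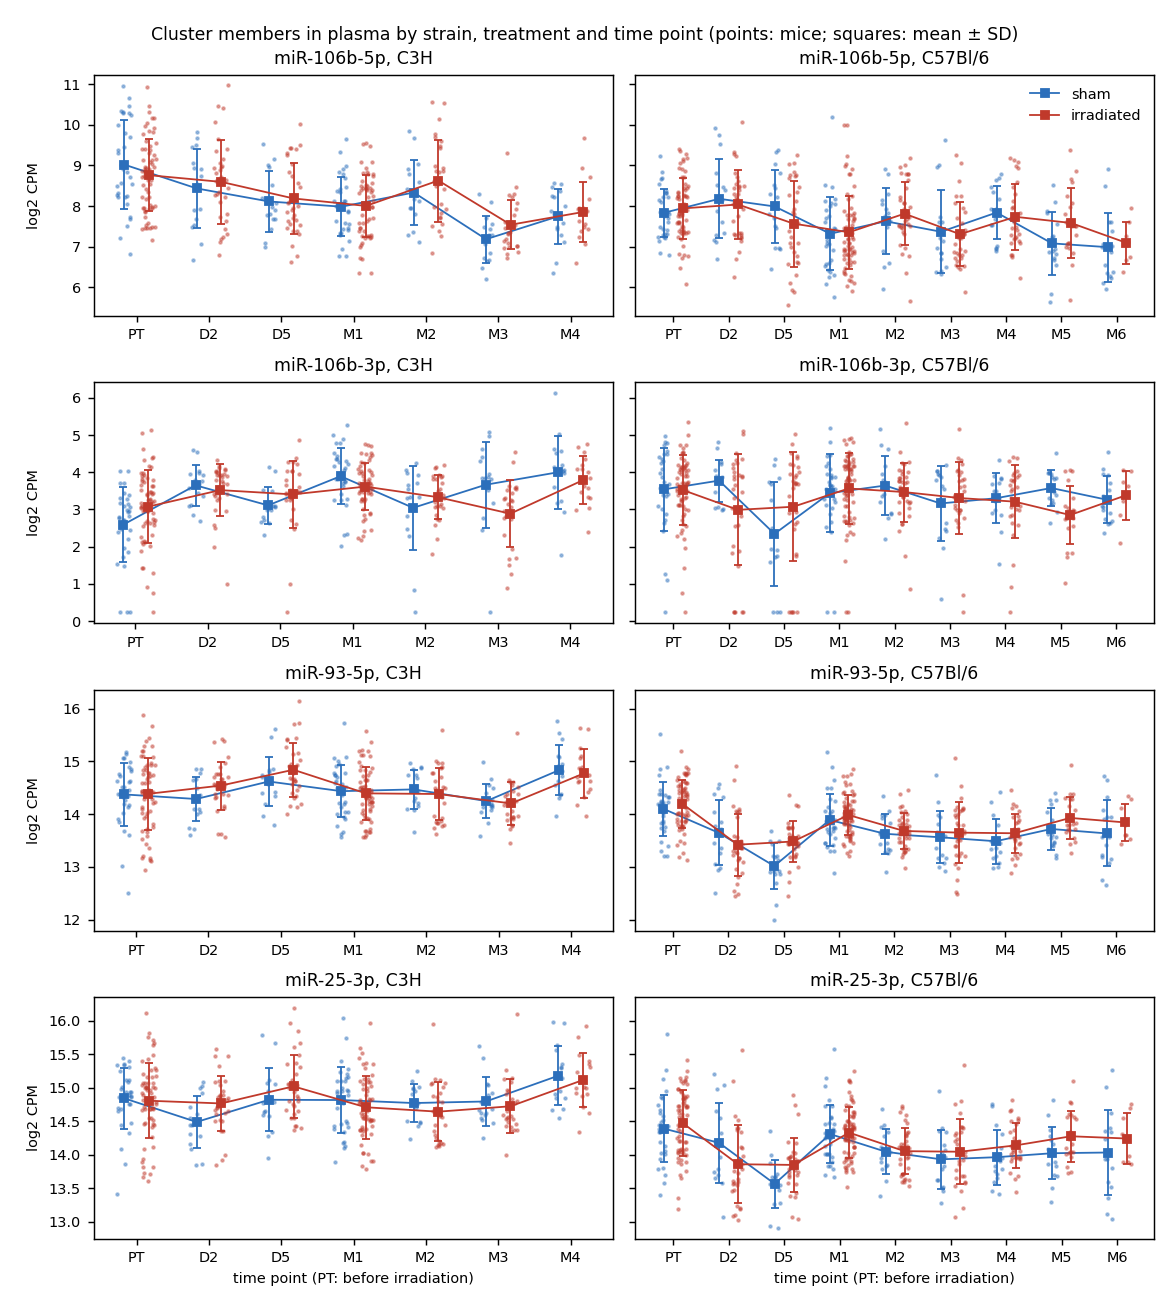
Level of each member (log2 CPM, vertical axis) by time point (horizontal axis) in C3H mice (left) and C57Bl/6 mice (right). Points are mice, squares and bars are the mean ± SD of sham (blue) and irradiated (red) mice. The colours overlap in every panel, miR-25-3p and miR-93-5p lie near 14, and miR-106b-5p of C3H mice falls with time in both treatments.

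Whether irradiation changed the members was tested at each strain and time point as irradiated minus sham, with edgeR's quasi-likelihood test over all 483 miRNA and Benjamini-Hochberg adjustment within a comparison. Before irradiation, mice later assigned to the 2 treatments should not differ by treatment. There, 0 of 8 comparisons of members passed an adjusted p of 0.05, beside 0.0% of all miRNA in either strain. At an unadjusted p under 0.05, 2 of the 8 passed, both in C3H mice: miR-106b-3p (log2 fold change 0.54, SE 0.21) and miR-106b-5p (−0.37, SE 0.18). With limma-voom and with DESeq2, 0 of the 8 passed as well.

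After irradiation the cluster changed little. Of the 56 comparisons (4 members, 6 time points in C3H and 8 in C57Bl/6 mice), 2 passed. Irradiated mice were above sham mice in miR-93-5p (C57Bl/6, day 5) and below them in miR-106b-3p (C3H, month 3). Without adjustment, 7 of the 56 had a p under 0.05. In C3H mice 1 of 24 passed, where the share of all miRNA that passed was 4.97% on day 2, 3.11% on day 5, 3.31% at month 1, 0.621% at month 2, 2.07% at month 3 and 0.414% at month 4. In C57Bl/6 mice 1 of 32 passed, where the share was 6.63% on day 2, 14.1% on day 5, 3.73% at month 1, 3.31% at month 2, 1.66% at month 3, 4.76% at month 4, 3.52% at month 5 and 0.414% at month 6. Counts of members called were near these shares.

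miR-93-5p, one of the members with the seed AAAGUGC, was the only member called higher. In C57Bl/6 mice on day 5, the lowest, median and highest values were 12.46, 13.48 and 14.37 log2 CPM in 32 irradiated mice and 11.99, 13.03 and 13.69 in 16 sham mice. The groups overlapped over most of their range, with irradiated mice higher at every one of these marks. The means were 13.48 ± 0.39 (SD) and 13.02 ± 0.44, and the log2 fold change was 0.46 (SE 0.15, adjusted p = 0.0234 with edgeR). The direction was the same in each cohort and sex: 0.30 and 0.56 in females and males of cohort 1, and 0.80 and 0.16 in those of cohort 2.

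The call on miR-93-5p passed in 11 of 17 alternative analyses, in which the adjusted p ranged from 0.00697 to 0.484. Without the females of cohort 2 it was lost, at a log2 fold change of 0.35 (edgeR, adjusted p = 0.265). The 4 sham mice of that set had a median depth of 518838 reads, and 2 of them had under 500000. Without samples under 500000 reads the change was 0.39 (adjusted p = 0.136), and without the males of cohort 1 it was 0.41 (adjusted p = 0.0932). A replicate block for the mouse (limma-voom) gave an adjusted p of 0.0661, against 0.0617 without the block. With a fixed block, which takes each mouse's change from its own sample before irradiation, the log2 fold change was 0.29 (adjusted p = 0.484). With cohort and sex within each time point as terms, chosen after seeing the data, it was 0.45 (adjusted p = 0.00993).

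The other members did not all move with miR-93-5p on that day. miR-25-3p had medians of 13.83 in irradiated and 13.58 log2 CPM in sham mice, and its log2 fold change was 0.30 (SE 0.14, adjusted p = 0.149). miR-106b-3p had medians of 3.67 and 2.13, with a log2 fold change of 0.67 (SE 0.32, adjusted p = 0.149), and 0 reads in 5 of 32 irradiated and 3 of 16 sham mice. Of the irradiated mice with 0 reads, 4 were females of cohort 1, and all 3 of the sham mice were females of cohort 2, where the change was 3.15 (SE 0.86), against −0.27 to 0.73 in the other cohorts and sexes. miR-106b-5p had medians of 7.58 and 8.02, and a log2 fold change of −0.33 (SE 0.26, adjusted p = 0.461).

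Leukocyte markers were lower in the same comparison, in which 14.1% of all miRNA passed, while red blood cell markers did not move together. Of 5 leukocyte miRNA, 4 were lower in irradiated mice (miR-150-5p by a log2 fold change of −1.10), and their summed level ranged from 12.19 to 13.38 log2 CPM in irradiated and 13.16 to 14.52 in sham mice. Of 5 red blood cell miRNA, 1 was higher (miR-144-5p, 1.52), while miR-451a had −0.20 (adjusted p = 0.650). Their summed level was 14.57 to 16.92 in irradiated and 13.49 to 16.96 in sham mice. No marker of either list was at 0 in any of these samples. Of the markers of other cell types, the liver miRNA miR-122-5p was lower (−1.74) and miR-192-5p higher (0.75), 1 of 2 endothelial and platelet miRNA was higher (miR-126a-5p, 0.69), and 0 of 3 muscle miRNA passed. Their part in the result was not tested. In plasma, fewer cells of a type and less RNA released per cell cannot be told apart.

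miR-106b-3p, the rarer arm of its hairpin, was lower in irradiated C3H mice at month 3. The lowest, median and highest values were 0.90, 3.07 and 4.55 log2 CPM in 27 irradiated mice and 0.23, 3.84 and 5.09 in 16 sham mice. The groups overlapped, and the lowest sample of all was a sham mouse with 0 reads. Medians of 14 and 30.5 reads stood behind these values. Before irradiation, over both cohorts, the medians were 3.18 log2 CPM in mice later irradiated and 2.80 in sham mice. The median of sham mice was thus higher at month 3, and that of irradiated mice near its earlier value. The log2 fold change was −0.96 (SE 0.29, adjusted p = 0.0486 with edgeR), with −0.97 in females and −0.92 in males of cohort 1.

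That adjusted p lay just under the threshold, and the call passed in 8 of 17 alternatives, where it ranged from 0.0130 to 0.415. With the study's normalization and limma, the log2 fold change was −0.70 (adjusted p = 0.328). Without the females of cohort 1 it was −0.92 (adjusted p = 0.407) and without the males −0.97 (adjusted p = 0.415). Leaving out the females of cohort 2, which have no sample at month 3, also ended the call (−0.96, adjusted p = 0.0586). A replicate block for the mouse gave −0.92 (limma-voom, adjusted p = 0.0976, against 0.0971 without the block), and a fixed block −1.30 (adjusted p = 0.142). The 5p arm of the same hairpin had a log2 fold change of 0.39 (SE 0.28, adjusted p = 0.507), so the arms had opposite signs. The summed red blood cell markers were alike, with a mean of 15.97 in irradiated and 15.91 in sham mice, and so were the leukocyte markers, at 13.82 and 13.83. In that comparison no marker of any list passed, beside 2.07% of all miRNA. Single red blood cell markers diverged, with log2 fold changes from −0.10 to 0.67. With cohort and sex within each time point as terms, miR-144-3p had 0.67 (edgeR, adjusted p = 0.0692) and miR-144-5p 0.60 (adjusted p = 0.128).

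**Figure D2:**
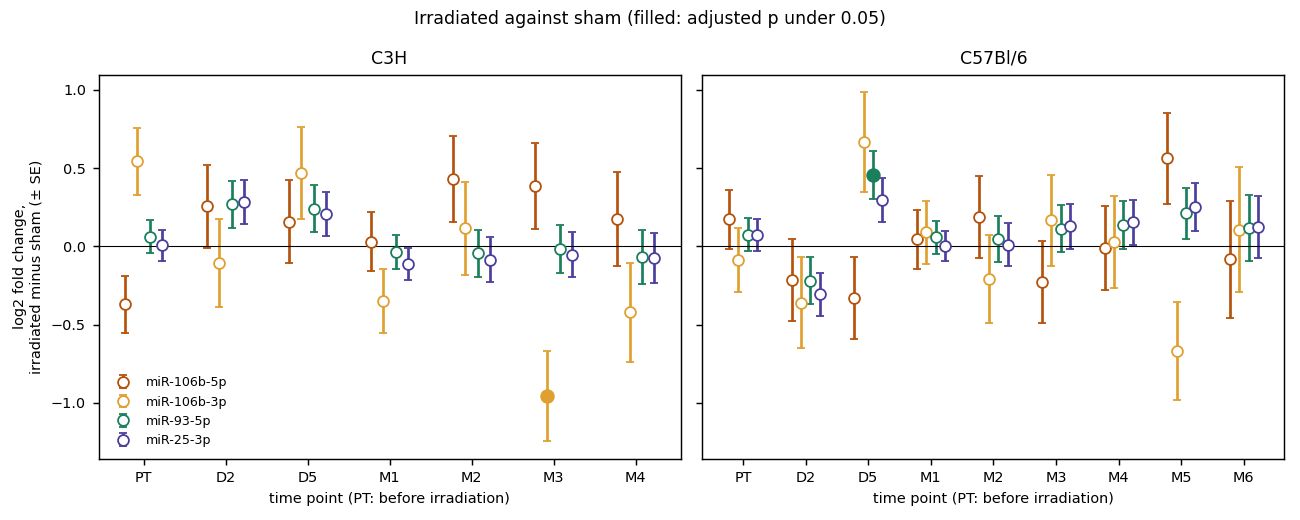
Log2 fold change of each member, irradiated minus sham (vertical axis, ± SE), by time point (horizontal axis) in C3H and C57Bl/6 mice. Filled circles passed an adjusted p of 0.05. They are miR-106b-3p in C3H mice at month 3 (−0.96) and miR-93-5p in C57Bl/6 mice on day 5 (0.46), and the other points after irradiation lie between −0.67 and 0.67.

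For the comparisons that did not pass, the intervals show what sizes remained possible. Their log2 fold changes after irradiation ranged from −0.31 to 0.30 for miR-25-3p, from −0.22 to 0.27 for miR-93-5p, from −0.33 to 0.56 for miR-106b-5p and from −0.67 to 0.67 for miR-106b-3p. The 95% intervals of miR-25-3p stayed between −0.58 and 0.58 at every time point and those of miR-93-5p between −0.51 and 0.56. Those of miR-106b-5p reached from −0.85 to 1.13. Those of miR-106b-3p were the widest, from −1.28 to 1.29, so the rarer members were measured less closely and larger changes remained possible for them.

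Month 1 was the time point after irradiation with the most mice. No member passed then in either strain, and all but miR-106b-3p of C3H mice were near 0. In 58 irradiated and 32 sham C3H mice, the log2 fold changes were 0.03 for miR-106b-5p, −0.35 for miR-106b-3p, −0.04 for miR-93-5p and −0.11 for miR-25-3p (SE 0.10 to 0.20). In 68 and 32 C57Bl/6 mice they were 0.04, 0.09, 0.06 and 0.00. Of the 12 tested miRNA of the related clusters, 3 were higher at that time in C3H mice (3.31% of all miRNA passed) and 2 in C57Bl/6 mice (3.73%). All were from the miR-106a cluster on the X chromosome. Among them miR-20b-5p, which matches miR-93-5p at 20 of 23 bases, was higher in C3H mice by 0.89 (SE 0.15, adjusted p = 5.47e-07).

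The opposite arm of miR-93 was called at another time. In C57Bl/6 mice on day 2, miR-93-3p had medians of 4.50 log2 CPM in irradiated and 5.27 in sham mice, with overlapping ranges, and a log2 fold change of −0.64 (SE 0.18, adjusted p = 0.00996). Its median counts were 17.5 and 46 reads, at median depths of 859418 and 1301000 reads. The other opposite arm, miR-25-5p, had −0.90 and did not pass. It had 0 reads in 10 of 32 irradiated and 1 of 16 sham mice. miR-93-5p had −0.22 (SE 0.15, adjusted p = 0.445) and miR-25-3p −0.31 (SE 0.14, adjusted p = 0.176) in the same samples.

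The irradiation effect was also compared between strains, as 1 F test over the 6 shared time points. Of the 4 members, 0 differed, beside 4.35% of all miRNA. The adjusted p was 0.440 for miR-106b-3p and for miR-25-3p, 0.691 for miR-93-5p and 0.827 for miR-106b-5p (edgeR). At single time points, the effect on miR-106b-3p differed at month 3 by 1.12 (C57Bl/6 minus C3H, SE 0.41, adjusted p = 0.388) and that on miR-25-3p on day 2 by −0.59 (SE 0.20, adjusted p = 0.298), and neither passed.

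Ratios of 2 members within a library need no normalization, and 42 of them were compared between treatments by permutation. The ratio of miR-93-5p to miR-25-3p (log2, pseudocount 0.5) was −0.37 ± 0.15 in irradiated and −0.55 ± 0.22 in sham C57Bl/6 mice on day 5 (means ± SD, difference 0.18, adjusted permutation p = 0.0477). The ratio of miR-106b-5p to miR-106b-3p was 4.93 ± 1.39 in 21 irradiated and 3.61 ± 0.95 in 16 sham C57Bl/6 mice at month 5 (difference 1.32, adjusted permutation p = 0.0477). No other ratio passed, and neither of these did with a pseudocount of 2 or without samples under 500000 reads. No C57Bl/6 sample at month 5 had under 500000 reads, so that difference stayed at 1.32. Adjusted together with the other ratios, its permutation p was then 0.0882.

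Whether irradiated mice that were sampled to the end differed already at month 1 was examined in cohort 1. Of 30 C3H mice 17 were sampled at month 4, and of 36 C57Bl/6 mice 8 were sampled at month 6. A missing sample need not mean a death. The differences in log2 CPM ranged from −0.13 to 0.37, and the adjusted p of all 8 tests was 0.903 (permutation test for C3H, exact permutation test for C57Bl/6).

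The strains were compared before irradiation in 96 mice each, and all 4 members differed (edgeR), beside 50.7% of all miRNA. miR-106b-5p had values of 6.82, 8.83 and 10.96 log2 CPM (lowest, median and highest) in C3H and 6.08, 7.84 and 9.41 in C57Bl/6 mice. The ranges overlapped, with the C57Bl/6 values lower at each of these marks, and the log2 fold change (C57Bl/6 minus C3H) was −1.18 (SE 0.13, adjusted p = 9.93e-17). The 3p arm of the same hairpin was higher in C57Bl/6 mice, with medians of 3.04 and 3.69 and a log2 fold change of 0.77 (SE 0.15, adjusted p = 1.17e-06).

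The abundant members differed less. miR-25-3p had medians of 14.89 in C3H and 14.44 in C57Bl/6 mice (log2 fold change −0.39, SE 0.07, adjusted p = 2.64e-07), and miR-93-5p had medians of 14.44 and 14.21 (−0.28, SE 0.07, adjusted p = 6.55e-04). All 5 red blood cell markers were lower in C57Bl/6 mice too, miR-451a by a log2 fold change of −0.61 (SE 0.12). Their summed level was 15.19 to 18.14 log2 CPM in C3H and 14.34 to 17.48 in C57Bl/6 mice, with none at 0. Their part in the result was not tested.

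The strain differences of miR-93-5p and miR-25-3p were not shared by the cohorts. Cohort means of miR-93-5p were 13.94 ± 0.57 (SD) and 14.83 ± 0.37 log2 CPM in cohorts 1 and 2 of C3H mice, and 14.47 ± 0.35 and 13.86 ± 0.38 in those of C57Bl/6 mice, with 48 mice in each. C57Bl/6 mice were thus higher in cohort 1 and lower in cohort 2. The differences were 0.32 and 0.54 in females and males of cohort 1, and −0.83 and −1.03 in those of cohort 2 (SE 0.13 to 0.14). For miR-25-3p they were 0.09, 0.20, −0.81 and −1.10 in the same order. Without the males of cohort 2 neither passed (miR-93-5p at −0.03, adjusted p = 0.778, and miR-25-3p at −0.16, adjusted p = 0.0844), and miR-93-5p did not pass without the females of cohort 2 (−0.08, adjusted p = 0.480) or with the study's normalization and limma (−0.13, adjusted p = 0.107). Whether cohorts of the same number were run together is not given in the labels, and the difference between cohorts was not tested.

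miR-106b-5p kept its sign but not its size. It was lower in C57Bl/6 mice by 1.91 and 1.08 on the log2 scale in females and males of cohort 1 and by 0.98 and 0.03 in those of cohort 2, while miR-451a had −1.33, −0.71, −0.78 and 1.05. The means of miR-106b-5p were 9.47 and 8.22 in the C3H cohorts, against 8.11 and 7.70 in those of C57Bl/6 mice, so both C3H cohorts lay above both C57Bl/6 cohorts. miR-106b-3p was higher in C57Bl/6 mice by 0.99, 0.79, 0.09 and 1.27. With the cohort as the unit, 2 against 2, an exact two-sided permutation test cannot give a p under 0.333, which it gave for both arms of miR-106b, and it gave 0.667 for miR-93-5p and miR-25-3p. Strain and cohort cannot be told apart here, since no cohort held both strains.

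**Figure D3:**
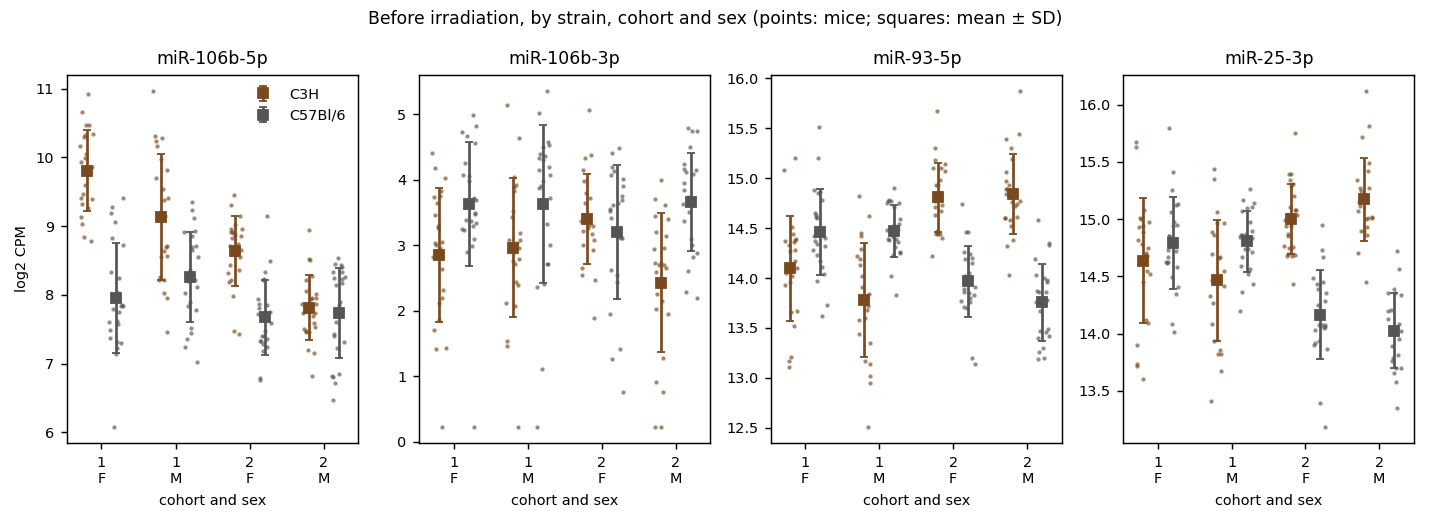
Level of each member before irradiation (log2 CPM, vertical axis) by cohort and sex (horizontal axis) in C3H mice (brown) and C57Bl/6 mice (grey). Points are mice, squares and bars the mean ± SD of 24 mice. miR-93-5p and miR-25-3p are higher in C57Bl/6 mice in cohort 1 and lower in cohort 2.

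Other miRNA with the same seeds also differed between the strains. All 6 tested miRNA with the seed AAAGUGC passed: miR-17-5p at −1.96, miR-106b-5p at −1.18, miR-20a-5p at −0.36, miR-106a-5p at −0.31, miR-93-5p at −0.28 and miR-20b-5p at 0.43. The pair with the largest differences, miR-17-5p and miR-106b-5p, were 18 of 21 bases alike, and their reads could have been split. Of the 5 with the seed AUUGCAC, 4 passed, and miR-92a-3p did not (−0.09, SE 0.09, adjusted p = 0.431). Of the 12 miRNA of the related clusters, 7 passed, 5 of them lower and 2 higher in C57Bl/6 mice. These counts stand beside 50.7% of all miRNA, of which 139 were lower and 106 higher.

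Males and females were compared before irradiation within each strain. In C3H mice 1 of 4 members differed, beside 14.5% of all miRNA. miR-106b-5p was lower in males, with a log2 fold change of −0.61 (SE 0.18, adjusted p = 0.0104 with edgeR). Females and males had medians of 9.84 and 9.12 log2 CPM in cohort 1 and 8.78 and 7.80 in cohort 2, and the ranges overlapped. The difference was −0.50 and −0.89 in the cohorts. miR-451a was lower in males by 0.60 on the log2 scale (adjusted p = 0.00614), by 0.39 in cohort 1 and 1.13 in cohort 2. The red blood cell markers went both ways. Of the 5, 1 passed as lower and 1 as higher in males, with log2 fold changes from −0.60 to 0.77. Leaving out one sex of a cohort leaves the cohorts unequal between the sexes. Without the females of cohort 1 the difference of miR-106b-5p was 0.13 (adjusted p = 0.644) and without the males of cohort 2 it was −0.02 (adjusted p = 0.980), while it was −1.63 without the males of cohort 1 and −1.09 without the females of cohort 2. In C57Bl/6 mice 0 of 4 differed with edgeR (0 also at an unadjusted p under 0.05), beside 14.7% of all miRNA.

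Sham mice changed with time, and in C3H mice all 4 members did so by an F test over the later time points, beside 46.0% of all miRNA. The fall of miR-106b-5p was the largest change in the cluster. In cohort 1 its lowest, median and highest values in 16 sham mice were 8.22, 10.12 and 10.96 log2 CPM before irradiation, 7.11, 8.27 and 9.86 at month 2, and 6.20, 7.23 and 8.30 at month 3. At month 3 a single mouse, the highest, lay above the lowest value before irradiation. Against all sham mice before irradiation, its log2 fold change was −0.69 on day 2, −1.11 on day 5, −1.24 at month 1, −0.86 at month 2, −2.12 at month 3 and −1.53 by month 4 (SE 0.22 to 0.29). The adjusted p of the F test was 1.70e-13 (edgeR).

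The other arm of that hairpin went the other way. miR-106b-3p of the sham C3H mice of cohort 1 had a median of 2.60 before irradiation, 3.84 at month 3 and 4.05 at month 4. Medians of 5.5, 30.5 and 39.5 reads stood behind these values. Against all sham mice before irradiation, its log2 fold change was 1.22 (SE 0.28) at month 3 and 1.57 (SE 0.28) at month 4 (F test adjusted p = 6.54e-08). The ratio of the 5p to the 3p arm, which needs no normalization, was 6.16 ± 1.59 on a log2 scale in all 96 C3H mice before irradiation and 3.86 ± 1.59 in 16 sham mice at month 4. It moved less in C57Bl/6 mice, from 4.50 ± 1.39 to 3.88 ± 1.20 at month 6. These changes in the ratio over time were not tested.

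miR-93-5p and miR-25-3p of sham C3H mice were higher at month 4 by 0.43 (SE 0.15) and 0.34 (SE 0.14) on the log2 scale (F tests adjusted p = 0.0117 and 0.00815). Neither passed the F test without the females of cohort 1 (adjusted p = 0.753 and 0.415), and miR-25-3p did not with the study's normalization and limma (adjusted p = 0.0560). Set against the same cohort and sexes, those rises were 0.88 and 0.57, and on that basis miR-93-5p was also higher at month 2 (0.47, adjusted p = 0.00237) and miR-25-3p lower on day 2 (−0.37, adjusted p = 0.0157). Members of 1 primary transcript thus had changes of opposite sign at month 4, with miR-106b-5p at −1.99 within cohorts and sexes. The fall of miR-106b-5p within cohorts and sexes was 0.60 on day 2, 0.92 on day 5, 1.03 at month 1, 1.42 at month 2 and 2.55 at month 3. miR-451a had −0.09, −0.04, −0.16, −1.15 and −1.75 at these times, and −1.08 at month 4. The other red blood cell markers did not all go with it. miR-144-3p and miR-144-5p had −1.21 and −1.09 on day 2, 0.86 and 0.98 at month 2, and −0.02 and 0.32 at month 3. miR-486a-5p had −0.73 on day 2, −0.84 at month 2 and −0.88 at month 3. The part of these markers in the result was not tested.

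A single set of sham mice went against the others. In the 4 male C3H mice of cohort 2 on day 2, miR-106b-5p was higher than before irradiation by 1.36 (SE 0.43), against −0.97 to −1.50 in the other cohorts and sexes. miR-451a was also higher in those mice than before irradiation. On day 5 the males of that cohort again had the highest value of miR-106b-5p, 0.39 (SE 0.44), with miR-451a at 1.49. Those males had the lowest level of miR-106b-5p of any C3H set before irradiation, with a median of 7.80.

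**Figure D4:**
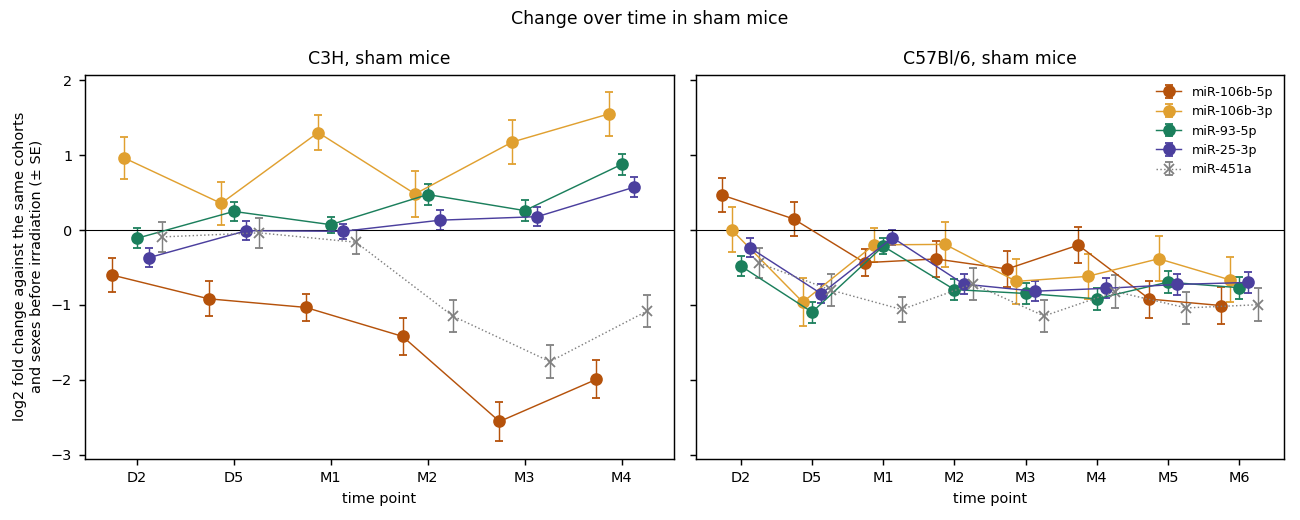
Log2 fold change of the members and of miR-451a (crosses) in sham mice against the same cohorts and sexes before irradiation (vertical axis, ± SE), by time point (horizontal axis). In C3H mice miR-106b-5p falls to −2.55 at month 3 while miR-106b-3p stays above 0, and in C57Bl/6 mice miR-93-5p and miR-25-3p are lowest on day 5, at −1.10 and −0.85.

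In sham C57Bl/6 mice 3 of 4 members changed with time, beside 62.9% of all miRNA. miR-93-5p and miR-25-3p had the lowest adjusted p here, and miR-106b-3p did not pass (adjusted p = 0.106). It did pass with the study's normalization and limma (adjusted p = 0.00159), without the females of cohort 1 (0.0392) and with cohort and sex within each time point as terms (0.0455, a fit chosen after seeing the data). Its adjusted p was up to 0.326 under the other alternatives, the highest being without the females of cohort 2. On day 5 it was lower by 0.96 within cohorts and sexes (adjusted p = 0.00962), where 3 of the 16 sham mice, all females of cohort 2, had 0 reads. miR-93-5p in cohort 1 had values of 13.73, 14.29 and 15.52 log2 CPM in 16 sham mice before irradiation and 12.70, 13.03 and 13.50 in 8 on day 5. These groups did not overlap. In cohort 2, miR-93-5p had values of 13.20, 13.85 and 14.74 in 16 sham mice before irradiation and 11.99, 13.06 and 13.69 in 8 on day 5, which overlapped. Against all sham mice before irradiation its log2 fold change was −1.11 (SE 0.16) on day 5 and −0.42 to −0.64 from month 2 to month 6 (F test adjusted p = 1.44e-09). For miR-25-3p it was −0.87 (SE 0.15) on day 5 and −0.32 to −0.48 from month 2 on (F test adjusted p = 3.62e-07).

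miR-106b-5p of sham C57Bl/6 mice had log2 fold changes of −0.69 at month 5 and −0.70 at month 6 (SE 0.27, F test adjusted p = 5.42e-04). Within cohorts and sexes these were −0.92 and −1.01, after −0.44 at month 1 (adjusted p = 0.0615), −0.39 at month 2 and −0.52 at month 3 (adjusted p = 0.0759). Its values on day 2 and day 5 were 0.54 and 0.29 (SE 0.26). miR-451a had −0.54 on day 5 and −0.92 at month 6. The other red blood cell markers did not all go with it. Within cohorts and sexes, miR-144-3p had 0.79 at month 5 and 0.05 at month 6, and miR-144-5p had 0.11 and −1.14. miR-486a-5p had −1.11 and −1.34 at these times, and miR-451a had −1.04 at month 5. The part of these markers in the result was not tested. The higher miR-93-5p of irradiated C57Bl/6 mice on day 5 was measured against sham mice that were at their lowest level of any time point. In the irradiated mice the median of miR-93-5p was 14.27 before irradiation, 13.35 on day 2, 13.48 on day 5 and 14.01 at month 1. Time since the procedure, age and any batch that went with a time point cannot be told apart.

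How the members varied together was examined before irradiation, across 96 mice of each strain, in 12 comparisons of which 6 passed. miR-93-5p and miR-25-3p were nearly proportional. Pearson's r was 0.959 in C3H and 0.975 in C57Bl/6 mice, and Spearman's rho 0.936 and 0.978 (adjusted permutation p = 3e-05 for r and 4e-05 for rho, from 1e-05, the smallest that the permutations could give). Without the 2 mice farthest from the median, r was 0.953 and 0.972, and within single cohorts and sexes it ranged from 0.916 to 0.989. The libraries share their depth and composition, so these values describe both miRNA and library.

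miR-106b-5p did not follow them in the same way. In C57Bl/6 mice its r was 0.498 with miR-93-5p and 0.461 with miR-25-3p (rho 0.443 and 0.422, adjusted permutation p = 3e-05 for both r). In C3H mice it was −0.385 and −0.279 (rho −0.409 and −0.320, adjusted permutation p = 3.6e-04 and 0.0120). The C3H values rested on the cohorts: with the means of cohort and sex removed, r was 0.0468 and 0.110. Single cohorts and sexes of C3H mice ranged from −0.510 to 0.716 with miR-93-5p. The arms of the miR-106b hairpin had an r of −0.019 in C3H and −0.078 in C57Bl/6 mice (rho 0.019 and −0.106, adjusted permutation p = 0.991 and 0.603 for r).

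Over all samples, after removing the mean of each strain, treatment and time point, the miRNA most like each member were found among the 483. They are given as a description, since libraries share depth and composition. miR-93-5p and miR-25-3p were each other's nearest (r = 0.95), followed by miR-148b-3p (0.84 and 0.83). Next came miR-30e-5p (0.76) for miR-93-5p and miR-16-5p (0.76) for miR-25-3p. For miR-106b-5p the nearest were the red blood cell marker miR-451a (0.80), then miR-17-5p (0.75) and miR-18a-5p (0.65) of the miR-17 cluster, while its r was 0.28 with miR-93-5p and 0.29 with miR-25-3p. Its r with the other red blood cell markers was lower: 0.42 for miR-486a-5p and miR-486b-5p, 0.30 for miR-144-3p and 0.04 for miR-144-5p. Both miR-486 markers had an r of 0.65 with miR-93-5p and 0.73 with miR-25-3p. With miR-451a, miR-144-3p and miR-144-5p, miR-93-5p and miR-25-3p had r from 0.21 to 0.36. miR-106b-3p had no close neighbour. Its highest were miR-361-5p (0.37), miR-205-5p (0.35) and miR-30d-5p (0.35), and its r with miR-106b-5p was −0.10.

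**Figure D5:**
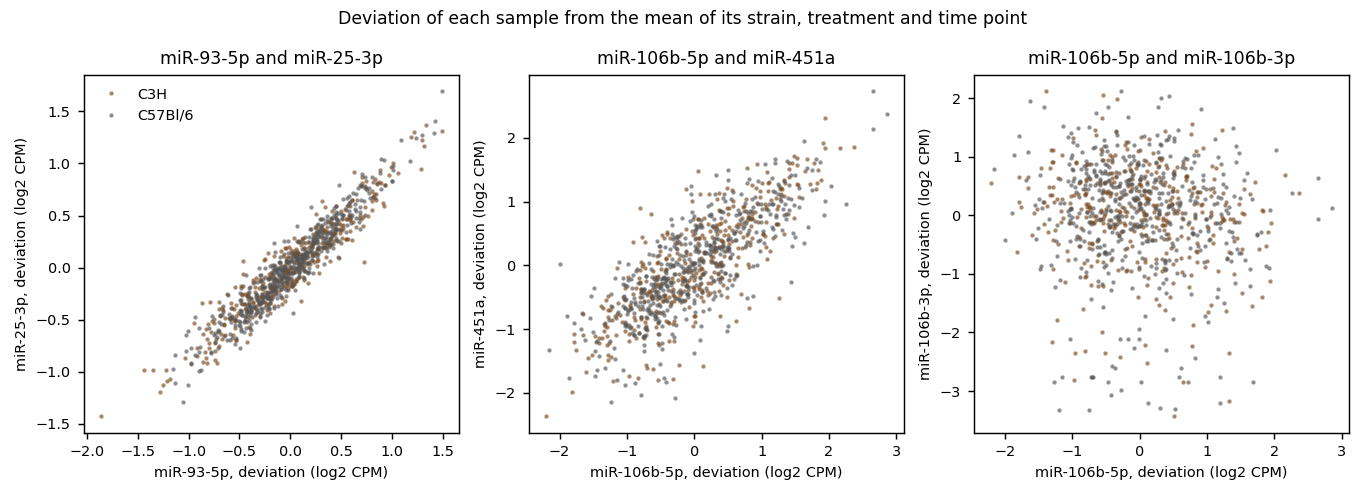
Deviation of each sample from the mean of its strain, treatment and time point (log2 CPM) for 3 pairs of miRNA, with C3H samples in brown and C57Bl/6 samples in grey. miR-93-5p and miR-25-3p lie along a line (r = 0.95), miR-106b-5p spreads with miR-451a (0.80), and the arms of miR-106b form a cloud (−0.10).

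On day 5 in C57Bl/6 mice, miRNA with the seed AAAGUGC did not move together. miR-93-5p passed as higher, while miR-17-5p (−0.62, SE 0.20, adjusted p = 0.0192) and miR-106a-5p (−0.86, SE 0.20, adjusted p = 4.58e-04) passed as lower. miR-20a-5p had 0.32 (SE 0.13, adjusted p = 0.0870), miR-20b-5p 0.04 and miR-106b-5p −0.33. Of the 5 miRNA with the seed AUUGCAC, 0 passed, with log2 fold changes from −0.24 to 0.53. By level the first group was led by miR-93-5p, at 14.08 log2 CPM over all samples, followed by miR-20a-5p at 11.06, miR-17-5p at 9.07, miR-106b-5p at 7.91, miR-20b-5p at 5.37 and miR-106a-5p at 4.80.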

How the data were processed

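The authors isolated RNA from plasma free of excess hemolysis, sequenced small RNA libraries, aligned trimmed reads with BaseSpace against mouse miRNA (mm10) and deposited raw counts for each mature miRNA, not normalized. The miRBase release and use of molecular identifiers are not given in the sources used here. Groups, mice, cohorts and sexes came from the sample titles. No samples had identical values.

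From the counts, log2 CPM (TMM, factors 0.372 to 1.59, prior count 2) was computed in R 4.3.3. The main test was edgeR 4.0.16 on all samples with 32 group means, after filterByExpr (99.99% of reads kept). Limma 3.58.1 and DESeq2 1.42.0 served as alternatives. Ratios, correlations and later sampling were tested by two-sided permutation (100000 resamples, exact below 10 samples). Same-numbered samples came from the same mouse, and the estimated correlation within a mouse was 0.0434. Scripts were tested on simulated data. Samples of 1 mouse are not independent in the main test. Depth limits miR-106b-3p most.

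The members and the lists of related and marker miRNA were chosen with earlier results of these data known. The text names the members, the other arms of their hairpins, related clusters, seed families and the 3 most alike miRNA of each member.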

Additional observations from a re-analysis of the deposited data

How the results depend on the processing

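The 2 calls after irradiation depended on the analysis. In C3H mice, 0 members passed, in place of 1, with limma-voom, with the study's normalization and limma, with normalization without red blood cell miRNA, with only the groups compared, and without the females of cohort 1, the males of cohort 1 or the females of cohort 2. In C57Bl/6 mice, 0 passed with limma-voom, without samples under 500000 reads, and without the males of cohort 1 or the females of cohort 2, and 2 passed without the females of cohort 1. With the mouse as a replicate block, estimated or fixed, 0 passed in either strain, and the block changed no other count of members called. The strain difference before irradiation went from 4 to 2 members without the males of cohort 2, the change over time in sham C3H mice from 4 to 2 without the females of cohort 1, and the sex difference from 1 to 2 in C3H mice without the males of cohort 2 and from 0 to 2 in C57Bl/6 mice without the males of cohort 1 or the females of cohort 2. Ratios called went from 2 to 0 with a pseudocount of 2 and without samples under 500000 reads. The sign turned for miR-106b-5p between the sexes of C3H mice without the females of cohort 1 (0.13), and for its correlations in C3H mice within cohort and sex (0.0468 with miR-93-5p, 0.110 with miR-25-3p). The cause was not tested. Over all values of single members, ratios and correlations under an alternative, those above included, 1524 were close to the main value, 27 lost and 11 gained the threshold, 3 turned and 89 moved. DESeq2's Wald test gave no value for tests of several terms, and a fixed block for the mouse none before irradiation. Depth limits miR-106b-3p most, with a median of 15 reads.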
